A study of Mus musculus with 24 samples.

Results

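The genes described here are the regulators of pre-mRNA splicing that belong to 4 families, measured in the visual cortex of mice kept in the dark or placed in light, with or without psilocybin. They are all protein-coding genes of the count table whose symbol is Srsf followed by a number, begins with Hnrnp, or is Elavl1 to Elavl4 or Clk1 to Clk4. The rule found 40 members among 55414 genes: 12 Srsf genes, 20 Hnrnp genes, 4 Elavl genes and 4 Clk genes. The rule used names only and no measured value, but the members were chosen with earlier results of these data known. Srsf19 had no count in any library, so 39 members entered the tests.

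The study asked how the genes regulated by psilocybin, a serotonergic psychedelic, relate to those regulated by visual experience, and so gave the drug in the dark and in light. RNA was sequenced from the primary visual cortex of 24 male C57BL/6J mice, 1 library per mouse and 6 mice per group. The mice were 8 weeks old, lived on a reversed light cycle and were tested in their dark phase. The dark group received PBS and stayed in the dark, and the light group received PBS and was placed in light. The psilocybin-dark group received 5 mg/kg psilocybin and stayed in the dark, and the psilocybin-light group received the same dose and was placed at once in light. All mice were killed 2.5 hours later. No group carries a transgene, and each library holds all the cells of the dissected tissue.

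Groups follow the headings of the study's supplementary count table, by which libraries 1 to 6 are dark, 7 to 12 psilocybin-dark, 13 to 18 light and 19 to 24 psilocybin-light. In the sample labels the drug of every library is the same but its light exposure is the reverse. The 4 sets of mice are the same either way, but if the labels were right each "light" below would read "dark" and the reverse, and every light effect and interaction would change sign. The summed level of 12 immediate early genes, a class that neuronal activity induces, was at most 9520 normalized counts in libraries 1 to 6 and at least 18600 in libraries 13 to 18.

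SR proteins (Srsf genes) bind exonic enhancer sequences and recruit the spliceosome, and many hnRNP proteins oppose them by binding silencer sequences. Clk kinases phosphorylate the serine-arginine domain of SR proteins and so release them from nuclear speckles. Elavl proteins (Hu proteins) bind U-rich and AU-rich elements, where they regulate splicing in the nucleus and mRNA stability in the cytoplasm. Elavl1 is made in most cells, and Elavl2, Elavl3 and Elavl4 are largely neuronal. Many of these genes limit their own output through exons or introns that send the mRNA to nonsense-mediated decay, and counts per gene do not separate such transcripts from coding ones.

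The promoters of Clk2, Clk3, Srsf5 and Hnrnpdl are shown because these genes were called higher in all 3 comparisons with dark, and that of Clk4, called in light only, because it alone holds the full element described below. They are the 250 bases before the RefSeq start of each gene in GRCm38.p6, written 5′ to 3′ along the gene, with the half-site of the cAMP response element, TGACG or its other strand CGTCA, in capitals. The windows are Clk2 at chr3:89164545-89164794 on the plus strand, Clk3 at chr9:57765115-57765364 on the minus strand, Clk4 at chr11:51262864-51263113 on the plus strand, Srsf5 at chr12:80945249-80945498 on the plus strand and Hnrnpdl at chr5:100039223-100039472 on the minus strand.
Clk2: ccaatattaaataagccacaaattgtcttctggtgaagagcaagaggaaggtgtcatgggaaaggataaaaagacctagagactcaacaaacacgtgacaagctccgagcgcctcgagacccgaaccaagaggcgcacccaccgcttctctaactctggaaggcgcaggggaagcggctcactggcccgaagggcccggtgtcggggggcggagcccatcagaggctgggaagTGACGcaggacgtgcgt
Clk3: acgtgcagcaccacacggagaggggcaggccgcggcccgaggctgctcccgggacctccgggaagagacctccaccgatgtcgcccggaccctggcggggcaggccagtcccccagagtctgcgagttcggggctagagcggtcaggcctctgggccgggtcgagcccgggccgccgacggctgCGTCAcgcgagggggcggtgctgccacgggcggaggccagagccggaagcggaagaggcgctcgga
Clk4: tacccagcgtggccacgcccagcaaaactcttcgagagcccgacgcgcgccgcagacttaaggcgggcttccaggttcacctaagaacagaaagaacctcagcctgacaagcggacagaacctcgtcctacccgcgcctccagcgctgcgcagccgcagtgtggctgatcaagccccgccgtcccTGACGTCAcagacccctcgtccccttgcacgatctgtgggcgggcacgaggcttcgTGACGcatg
Srsf5: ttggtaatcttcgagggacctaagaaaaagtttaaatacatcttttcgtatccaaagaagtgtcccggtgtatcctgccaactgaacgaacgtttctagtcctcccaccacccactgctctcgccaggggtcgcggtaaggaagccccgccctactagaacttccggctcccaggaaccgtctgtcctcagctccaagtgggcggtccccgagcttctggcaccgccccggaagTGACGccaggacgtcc
Hnrnpdl: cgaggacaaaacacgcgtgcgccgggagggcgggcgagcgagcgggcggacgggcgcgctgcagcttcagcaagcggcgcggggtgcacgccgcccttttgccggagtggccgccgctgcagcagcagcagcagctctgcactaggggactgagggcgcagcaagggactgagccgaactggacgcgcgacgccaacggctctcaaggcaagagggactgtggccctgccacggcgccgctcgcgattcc
The palindromic element TGACGTCA, which holds 2 overlapping half-sites, lies in the Clk4 window and in no other of the 36 members that had a promoter in the table. It occurred in 1.55% of all 32851 promoter windows of this length. A half-site on either strand occurred in 17.8% of all windows. These shares are per window while the members are counted per gene, so the 2 cannot be compared directly. At least 1 window of 20 of the 36 members held a half-site, among them Clk2, Clk3, Srsf5, Srsf11, Hnrnpc and Hnrnpr. Members of opposite direction below are therefore among those with the half-site, while the Hnrnpdl window has none.

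Library totals ran from 13552516 to 17906994 counts. Of the cell-type markers, the summed level of 10 hippocampal genes was 1680 to 11960 normalized counts in the dark mice and at most 1634 in every other mouse, with dark mouse 6 the lowest of its group. The summed level of 10 cerebellar genes was 39300 in dark mouse 1, 82190 in dark mouse 6, 23680 in light mouse 18 and 37560 in psilocybin-dark mouse 12, against at most 3269 in the other 20 mice. The 10 markers of cortical glutamatergic neurons summed to 12960 in dark mouse 1 and 21310 in dark mouse 6, against 29850 to 33800 in the other 4 dark mice and at least 29790 in every treated mouse. Against dark, 7 of these 10 were called higher in light, 7 in psilocybin-dark and 8 in psilocybin-light, with median log2 fold changes of 1.14, 1.03 and 1.05, and none was called between the 3 treated groups (0 of 10 by edgeR, with at most 1 at an unadjusted p under 0.05). No marker of these lists was at 0 in every library, and the part of these shifts in the members' results below was not tested. Comparisons with dark share these 6 dark mice, so the tissue sampled and the treatment cannot be told apart in them.

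**Figure D1:**
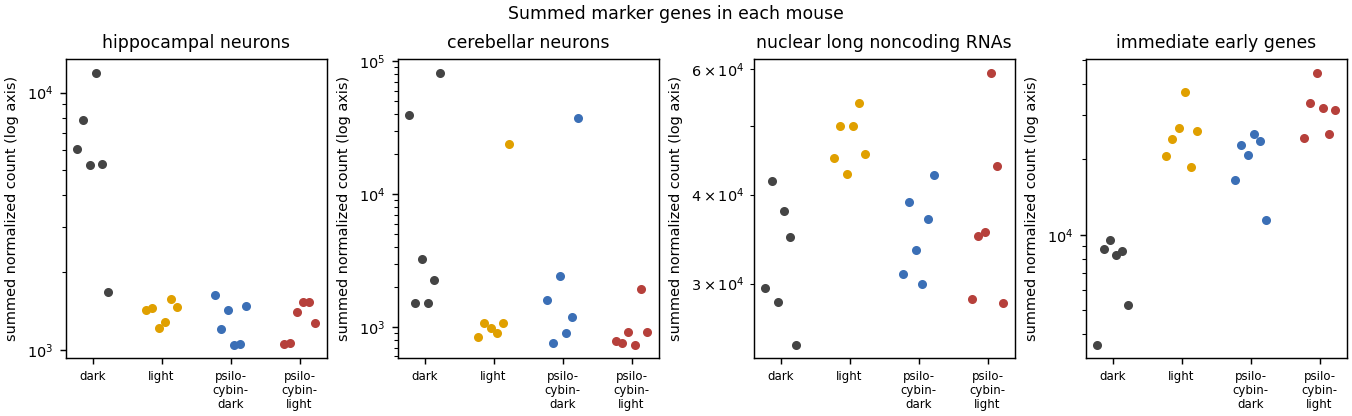
Summed normalized counts (log axis) of 4 fixed gene lists in each mouse, 1 point per mouse. Hippocampal sums are highest in the dark group, cerebellar sums stand apart in 4 mice, nuclear long noncoding RNAs are at least 42740 in all light mice, and immediate early genes are at most 9520 in the dark mice and at least 11500 in all others.

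The members spanned a wide range of levels. As mean normalized counts per kilobase of exon, Hnrnpa0, which binds AU-rich RNA, stood highest at 1209, and Hnrnpf, a binder of G-runs, was lowest at 19.8. Within the Elavl family, Elavl3 was highest at 711 per kilobase and Elavl1 lowest at 60.0. Among SR genes the extremes were Srsf1 at 429 and Srsf4 at 32.9 per kilobase, and among the kinases Clk1 at 87.3 and Clk4 at 40.1. The exons of 32 of the 40 members overlap those of another annotated gene, for 29 of them on the opposite strand, and the strand setting of the counting is not given in the sources used here. Hnrnpa1 has processed pseudogene copies that may share its reads, so its level is uncertain.

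In light against dark, the first comparison, a gene is called where its adjusted p from edgeR's quasi-likelihood test is under 0.05. Of the 39 tested members, 8 were called higher and 4 lower, that is 20.5% and 10.3% of them, against 15.4% and 16.5% of all 14464 genes tested. The 8 were the 4 Clk genes, Srsf5, Srsf11, Hnrnpdl and Hnrnpf, and the 4 were Hnrnpc, Hnrnpr, Hnrnpul1 and Elavl4. The groups did not overlap for 8 members, against 10.0% of all genes. The median log2 fold change of the members was -0.01, beside -0.01 over all genes. Psilocybin-dark against dark gave 4 higher and 3 lower, against 11.9% and 12.8% of all genes, with 2 members whose groups did not overlap against 5.58%. Psilocybin-light against dark gave 4 higher and 10 lower, against 17.4% and 21.0%, and 7 members without overlap against 15.8%. The member shares of 10.3% and 7.69% in psilocybin-dark, and 10.3% and 25.6% in psilocybin-light, lie below those of all genes except for the lower calls in psilocybin-light, and in light alone those called higher lie above.

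**Figure D2:**
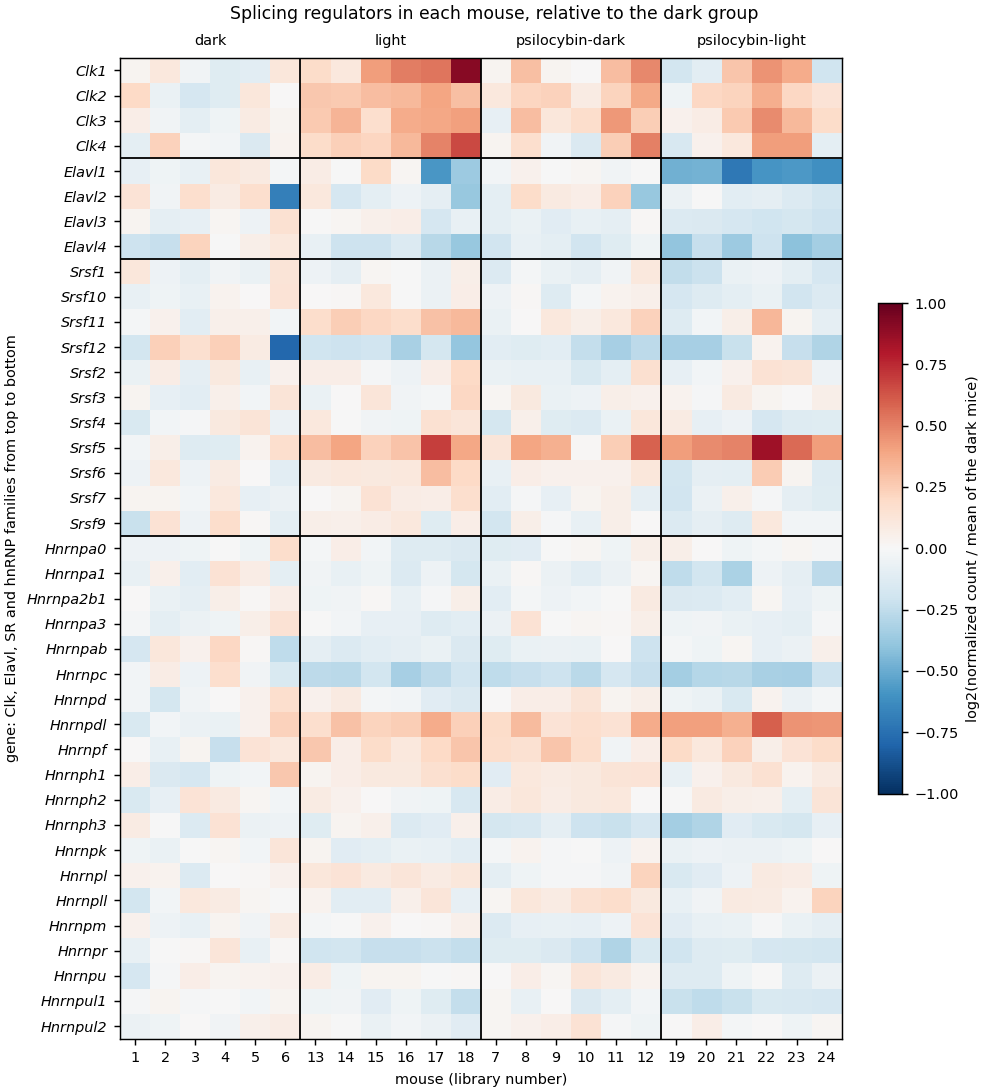
Each row is 1 of the 39 tested members and each column 1 mouse, coloured by the log2 ratio of its normalized count to the mean of the 6 dark mice. The Clk rows, Srsf5 and Hnrnpdl are red in the light mice, Hnrnpc and Hnrnpr are blue in all 3 treated groups, and Elavl1 is blue in every psilocybin-light mouse and in light mice 17 and 18.

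All 4 Clk kinases were higher in light than in dark. In GRCm39 they lie on 4 chromosomes, Clk1 at chr1:58449348-58463234, Clk2 at chr3:89072098-89084228, Clk3 at chr9:57657836-57677642 and Clk4 at chr11:51152552-51174060. Clk2 had 336 to 432 (median 369.6) normalized counts in the dark mice and 452 to 497 (median 466) in the light mice, so that every light mouse lay above every dark mouse, with a log2 fold change of 0.31 ± 0.07 (SE, adjusted p = 0.001). Clk3 separated in the same way, at 556 to 630.1 (median 594) in dark and 668 to 792 (median 762) in light mice, a log2 fold change of 0.33 ± 0.07 (SE, adjusted p = 0.00211). Clk1, whose retained introns hold much of its RNA in the nucleus, was 597 to 705 (median 649) in dark and 702 to 1220 (median 898) in light mice. Its groups overlapped narrowly, light mouse 18 was its highest, and its log2 fold change was 0.47 ± 0.13 (SE, adjusted p = 0.00823). For Clk4, the closest relative of Clk1, the dark range was 383 to 497 (median 417) and the light range 483 to 668 (median 516), with a log2 fold change of 0.36 ± 0.12 (SE, adjusted p = 0.0187). The Clk4 call was lost without light mouse 18 (log2 fold change 0.29, adjusted p = 0.0515), which was 1 of the 4 mice with high cerebellar markers.

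With psilocybin the mean levels of the kinases stood between the dark and light groups. Clk2 was 399.6 to 489.5 (median 439) normalized counts in psilocybin-dark and 367 to 486 (median 435) in psilocybin-light mice. Both ranges overlapped the dark range, and the log2 fold changes against dark were 0.21 ± 0.07 (SE, adjusted p = 0.024) and 0.19 ± 0.07 (SE, adjusted p = 0.0276). For Clk3 the ranges were 563 to 805 (median 688) and 613 to 826 (median 695), with log2 fold changes of 0.21 ± 0.07 (SE, adjusted p = 0.0473) and 0.23 ± 0.07 (SE, adjusted p = 0.0168). These calls were near the threshold. Where a call was lost, the range of log2 fold changes in parentheses spans all 24 fits with 1 mouse removed, here and below. It includes the fits in which the call held. The Clk2 call in psilocybin-dark was lost without 1 of dark mice 3 and 4 or psilocybin-dark mouse 12 (log2 fold changes between 0.17 and 0.25, highest adjusted p = 0.0588), and that in psilocybin-light without 1 of dark mice 2, 3 and 4 or psilocybin-light mice 21 and 22 (log2 fold changes between 0.15 and 0.24, highest adjusted p = 0.0799). The Clk3 call in psilocybin-dark was lost without 1 of dark mice 2, 3 and 4 or psilocybin-dark mice 8, 10, 11 and 12 or light mice 13, 14 and 16 or psilocybin-light mice 21 and 23 (log2 fold changes between 0.16 and 0.26, highest adjusted p = 0.14). Its call in psilocybin-light was lost without psilocybin-light mouse 22 (log2 fold changes between 0.18 and 0.28, highest adjusted p = 0.0543). Neither Clk1 nor Clk4 passed the test with psilocybin, with log2 fold changes of 0.20 (adjusted p = 0.266) and 0.14 (adjusted p = 0.397) in psilocybin-dark, and 0.12 (adjusted p = 0.474) and 0.14 (adjusted p = 0.356) in psilocybin-light.

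**Figure D3:**
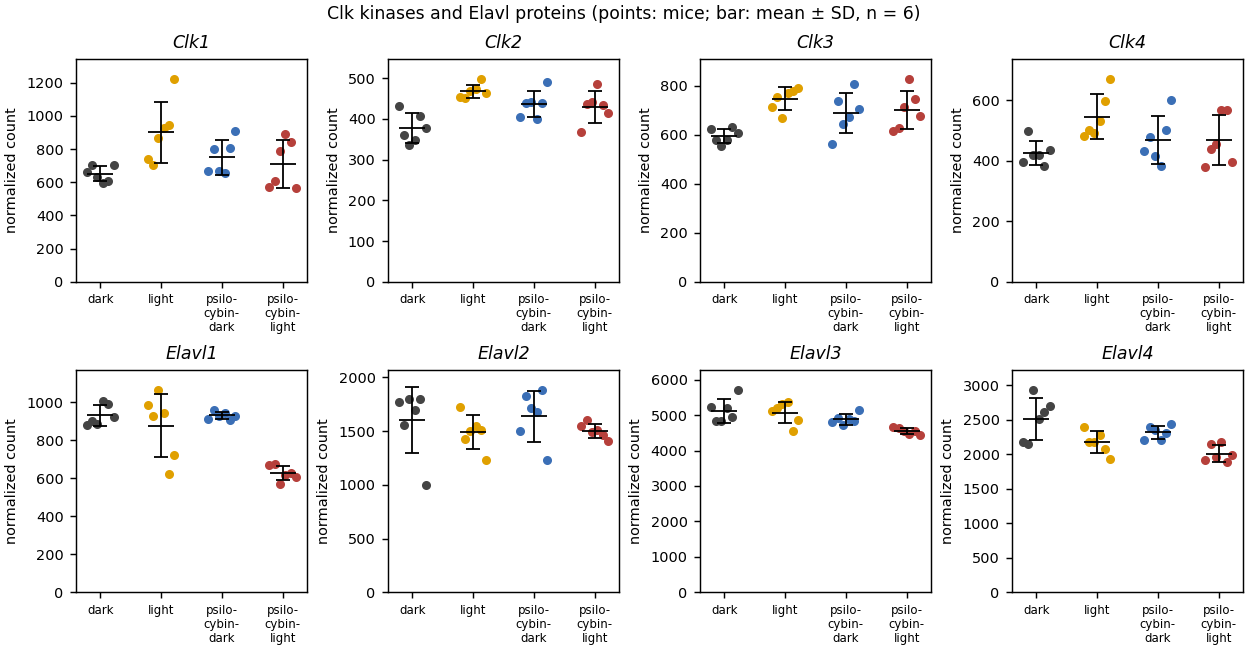
Normalized counts (axes from 0) of the 4 Clk and 4 Elavl genes, 1 point per mouse, with the mean and SD of 6 mice. Clk2 and Clk3 do not overlap between light and dark, and Elavl1 in psilocybin-light mice lies between 569.6 and 674, below every dark and psilocybin-dark mouse.

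Among the SR genes, Srsf5 (SRp40), at chr12:80986436-80997630 in GRCm39, rose in all 3 treated groups. Its normalized counts were 1665 to 2044 (median 1824) in dark, 2133 to 2950 (median 2323) in light, 1836 to 2747 (median 2248) in psilocybin-dark and 2434 to 3280 (median 2553) in psilocybin-light mice. The light and psilocybin-light ranges lay wholly above the dark range, and the psilocybin-dark range overlapped it. Against dark the log2 fold changes were 0.39 ± 0.09 (SE, adjusted p = 0.00268) in light, 0.30 ± 0.09 (SE, adjusted p = 0.022) in psilocybin-dark and 0.54 ± 0.09 (SE, adjusted p = 9.57e-05) in psilocybin-light. The psilocybin-dark call was lost without 1 of dark mouse 4 or psilocybin-dark mice 8 and 12 (log2 fold changes between 0.23 and 0.35, highest adjusted p = 0.0548). Srsf11, an SR-related factor that binds the U2AF splice-site complex, was called higher in light. Its light range was 1708 to 1903 (median 1775), above all dark mice at 1409 to 1574 (median 1529), with a log2 fold change of 0.24 ± 0.06 (SE, adjusted p = 0.00524). In psilocybin-dark and psilocybin-light its log2 fold changes were 0.07 (adjusted p = 0.413) and 0.04 (adjusted p = 0.693), and the test of the difference is given with the interaction.

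Srsf1, the founding SR protein, and Srsf10, which represses splicing when dephosphorylated, were called lower in psilocybin-light than in dark. Srsf1 was 2397 to 2798 (median 2485) normalized counts in dark and 2166 to 2480 (median 2339) in psilocybin-light mice, a log2 fold change of -0.14 ± 0.05 (SE, adjusted p = 0.029). Srsf10 was 794 to 919 (median 826) and 732 to 799.6 (median 764), with a log2 fold change of -0.13 ± 0.04 (SE, adjusted p = 0.0144). Both pairs of ranges overlapped. Srsf1 was no longer called without 1 of dark mice 1 and 6 or psilocybin-light mice 19, 20 and 24 (log2 fold changes between -0.16 and -0.10, highest adjusted p = 0.102), and Srsf10 without 1 of dark mouse 6 or psilocybin-light mouse 19 (log2 fold changes between -0.15 and -0.10, highest adjusted p = 0.0557). The other 7 tested SR genes (Srsf2, Srsf3, Srsf4, Srsf6, Srsf7, Srsf9 and Srsf12) passed in no comparison with dark when all mice were used. Srsf12 had the widest spread of the SR genes in dark relative to its mean, with dark mouse 6 at 224 and the highest dark mouse at 454 normalized counts. With the 4 mice with high cerebellar markers left out, Srsf12 was called lower in all 3 comparisons, with log2 fold changes of -0.40 (adjusted p = 9.79e-05) in light, -0.36 (adjusted p = 0.000319) in psilocybin-dark and -0.40 (adjusted p = 4.42e-05) in psilocybin-light.

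Hnrnpdl (JKTBP), a relative of the AU-rich element binder Hnrnpd that regulates its own mRNA by alternative splicing, rose in all 3 treated groups. Its normalized counts were 1624 to 2116 (median 1754) in dark, 2024 to 2338 (median 2137) in light, 1981 to 2332 (median 2043) in psilocybin-dark and 2316 to 2726 (median 2429) in psilocybin-light mice. Every psilocybin-light mouse was above every dark mouse, while the other 2 ranges overlapped the dark range through dark mouse 6. The log2 fold changes against dark were 0.26 ± 0.06 (SE, adjusted p = 0.00162) in light, 0.22 ± 0.06 (SE, adjusted p = 0.00697) in psilocybin-dark and 0.45 ± 0.06 (SE, adjusted p = 4.51e-06) in psilocybin-light. Hnrnpd itself was not called, with log2 fold changes of -0.03, 0.06 and -0.05. Hnrnpf was called higher in light, with 142 to 182 (median 168) normalized counts in dark and 173 to 201 (median 189.6) in light mice and overlapping ranges, at a log2 fold change of 0.18 ± 0.06 (SE, adjusted p = 0.0293). That call was lost without 1 of dark mice 2 and 4 or light mice 13 and 18 (log2 fold changes between 0.14 and 0.21, highest adjusted p = 0.081) and with DESeq2's test (adjusted p = 0.0519).

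Hnrnpc, which binds U-tracts next to splice sites, and Hnrnpr, an RNA-binding protein also found in axons, fell in all 3 treated groups. Hnrnpc was 2919 to 3630 (median 3171) normalized counts in dark, 2567 to 2859 (median 2703) in light, 2681 to 2880 (median 2759) in psilocybin-dark and 2556 to 2810 (median 2619) in psilocybin-light mice. No treated mouse reached the lowest dark mouse. The log2 fold changes were -0.25 ± 0.04 (SE, adjusted p = 0.00016), -0.23 ± 0.04 (SE, adjusted p = 0.0006) and -0.29 ± 0.04 (SE, adjusted p = 1.9e-05). For Hnrnpr the dark range was 1258 to 1443 (median 1326), and the ranges were 1125 to 1169 (median 1137) in light, 1075 to 1219 (median 1197) in psilocybin-dark and 1154 to 1218 (median 1177) in psilocybin-light mice. Again no treated mouse overlapped the dark group, and the log2 fold changes were -0.21 ± 0.04 (SE, adjusted p = 0.000112), -0.17 ± 0.04 (SE, adjusted p = 0.00134) and -0.16 ± 0.04 (SE, adjusted p = 0.00116).

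Hnrnph3, a small member of the family of G-run binders, was called lower with psilocybin. It was 709 to 864 (median 766) normalized counts in dark, 669 to 734 (median 692) in psilocybin-dark and 618 to 737 (median 694) in psilocybin-light mice, with overlapping ranges. The log2 fold changes were -0.17 ± 0.05 (SE, adjusted p = 0.0229) and -0.19 ± 0.05 (SE, adjusted p = 0.00693), and -0.04 (adjusted p = 0.614) in light. Without 1 of dark mice 1 and 4 or psilocybin-dark mice 10 and 11 the psilocybin-dark call was lost (log2 fold changes between -0.20 and -0.14, highest adjusted p = 0.0658). Hnrnpul1, a nuclear protein with a role in DNA repair, was 1776 to 1849 (median 1801) in dark, 1536 to 1764 (median 1716) in light and 1518 to 1632 (median 1582) in psilocybin-light mice. Neither range touched the dark range, and the log2 fold changes were -0.10 ± 0.04 (SE, adjusted p = 0.0448) and -0.20 ± 0.04 (SE, adjusted p = 0.000228). Its light call held in 10 of 24 fits with 1 mouse removed and failed without dark mice 1, 2, 3, 4 and 6 or psilocybin-dark mice 8 and 12 or light mice 15, 17 and 18 or psilocybin-light mice 19, 20, 21 and 24 (log2 fold changes between -0.11 and -0.07, highest adjusted p = 0.115). Hnrnpa1, a splicing repressor that opposes Srsf1, was 1612 to 1918 (median 1725) in dark and 1393 to 1676 (median 1491) in psilocybin-light mice, a log2 fold change of -0.19 ± 0.05 (SE, adjusted p = 0.00457). The other 13 Hnrnp genes were not called in any comparison with dark, the abundant Hnrnpa2b1, Hnrnpk and Hnrnpu included, although the 6 light mice lay above all dark mice for Hnrnpl at a log2 fold change of 0.11 ± 0.05 (SE, adjusted p = 0.0973). With the 4 mice with high cerebellar markers left out, 4 of these 13 were called. Hnrnpab was then lower in light, psilocybin-dark and psilocybin-light, by log2 fold changes of -0.19, -0.16 and -0.11 (adjusted p of 0.000794, 0.0038 and 0.0295), and Hnrnph1 was higher, by 0.19, 0.15 and 0.16 (adjusted p of 0.00508, 0.0199 and 0.00969). Hnrnpl was called higher in light at 0.13 (adjusted p = 0.0254) and Hnrnpu lower in psilocybin-light at -0.10 (adjusted p = 0.0223).

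**Figure D4:**
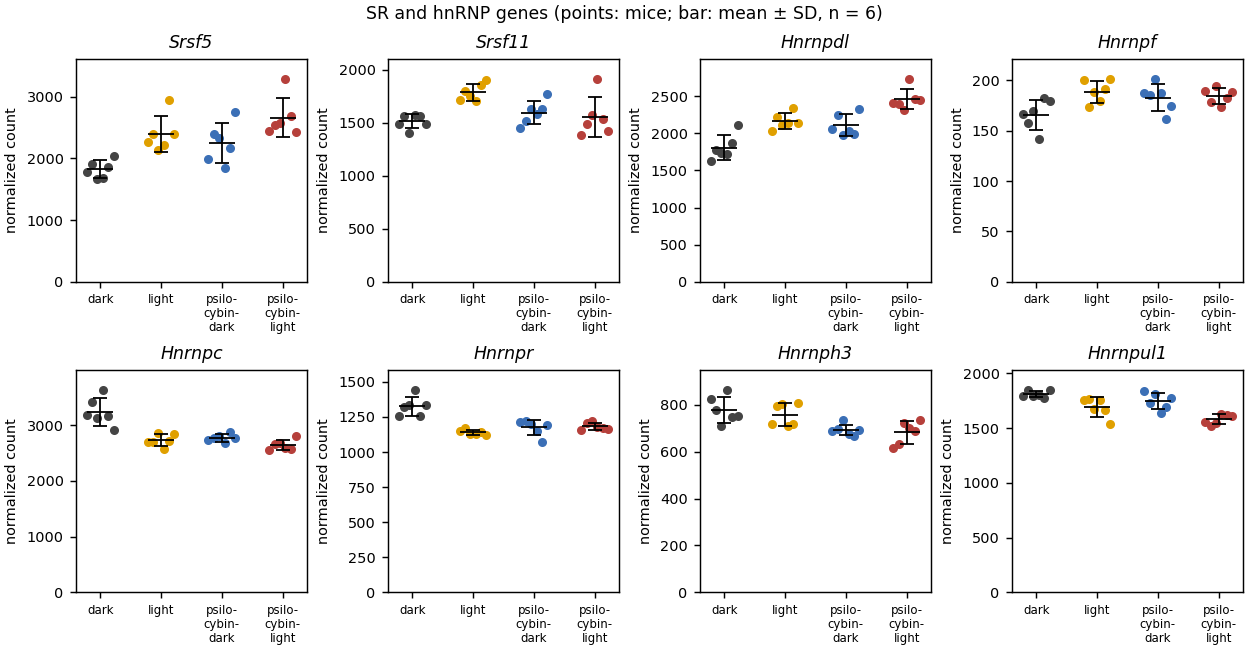
Normalized counts (axes from 0) of 8 SR and hnRNP genes, 1 point per mouse, with the mean and SD of 6 mice. Srsf5 and Hnrnpdl rise and Hnrnpc and Hnrnpr fall in the 3 treated groups against dark, and all light mice lie above all dark mice for Srsf11.

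Of the Elavl genes, Elavl1 (HuR), at chr8:4332576-4375489 in GRCm39, was low in the psilocybin-light mice. Its normalized counts were 880.3 to 1010 (median 913) in dark, 623 to 1066 (median 936) in light, 909.7 to 959 (median 930.0) in psilocybin-dark and 569.6 to 674 (median 624) in psilocybin-light mice. All psilocybin-light mice lay below all dark and all psilocybin-dark mice, and they overlapped the light group through light mouse 17 at 623, with light mouse 18 next at 726. As group means this was 628 ± 39.2 (SD, n = 6) against 933 ± 56 in dark. The log2 fold change of psilocybin-light was -0.57 ± 0.09 (SE, adjusted p = 3.56e-05) against dark, -0.57 ± 0.09 (SE, adjusted p = 0.00104) against psilocybin-dark and -0.48 ± 0.09 (SE, adjusted p = 0.0133) against light. Against dark, light alone gave -0.09 (adjusted p = 0.489) and psilocybin-dark gave -0.002 (adjusted p = 0.993).

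The call against light was lost without 1 of psilocybin-light mice 19 and 24 (log2 fold changes between -0.56 and -0.42, highest adjusted p = 0.0557) and when the 2 groups were fitted alone (adjusted p = 0.0758). The summed level of 8 astrocyte markers also was low in psilocybin-light mice, at 47460 to 53410 normalized counts. It was 57330 to 69450 in dark, 60670 to 74800 in psilocybin-dark and 52790 to 69580 in light, where mouse 17 was again the lowest. The 8 markers did not all move together. In psilocybin-light against dark 4 were called lower and 1 higher, against 21.0% and 17.4% of all genes. In light (16.5% and 15.4% of all genes) and in psilocybin-dark (12.8% and 11.9%) against dark, 2 were lower and 1 higher. In psilocybin-light 2 were lower against light and 3 against psilocybin-dark (0.553% and 3.78% of all genes), with 0 higher. The part of the lower astrocyte sum in the Elavl1 result was not tested. In such bulk samples fewer cells of a type and less RNA per cell cannot be told apart. The comparisons with light and psilocybin-dark do not contrast the dark mice. By the sample labels these 6 mice would be the psilocybin mice kept in the dark.

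The neuronal Elavl genes had smaller log2 fold changes. Elavl4 (HuD) was 2149 to 2936 (median 2563) normalized counts in dark, 1932 to 2396 (median 2180) in light, 2205 to 2441 (median 2334) in psilocybin-dark and 1889 to 2180 (median 1974) in psilocybin-light mice, with ranges that overlapped that of dark. Its log2 fold changes against dark were -0.21 ± 0.07 (SE, adjusted p = 0.0184) in light, -0.12 ± 0.07 (SE, adjusted p = 0.207) in psilocybin-dark and -0.32 ± 0.07 (SE, adjusted p = 0.000594) in psilocybin-light. The light call was lost without dark mouse 3 (log2 fold change -0.16, adjusted p = 0.0566). Elavl3 (HuC) was 4826 to 5710 (median 5074) in dark and 4437 to 4655 (median 4548) in psilocybin-light mice, without overlap, at a log2 fold change of -0.17 ± 0.04 (SE, adjusted p = 0.00319). In light and psilocybin-dark the log2 fold changes of Elavl3 were -0.02 (adjusted p = 0.812) and -0.07 (adjusted p = 0.25). Elavl2 (HuB) was not called in any comparison of the main fit. With the 4 mice with high cerebellar markers left out, it was called lower in psilocybin-light against dark (log2 fold change -0.18, adjusted p = 0.0151). The same fit called it lower against psilocybin-dark (-0.18, adjusted p = 0.0278). With the cerebellar markers in the model, Elavl2 was called lower against dark in light (-0.25, adjusted p = 0.0467) and in psilocybin-light (-0.29, adjusted p = 0.028). Its dark range of 999 to 1801 (median 1731) is set by dark mouse 6, and its log2 fold changes against dark were -0.10 (adjusted p = 0.524) in light, 0.03 (adjusted p = 0.878) in psilocybin-dark and -0.10 (adjusted p = 0.546) in psilocybin-light.

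With the mean log2 level of the hippocampal markers in the model, the members called fell from 12 to 3 in light, from 7 to 0 in psilocybin-dark and from 14 to 6 in psilocybin-light. The calls over all 14464 genes fell from 4611 to 833, from 3575 to 0 and from 5551 to 1079. The log2 fold changes of members that lost a call did not all shrink. Including the interaction, 29 calls of named members were lost, of which 14 had a larger fold with the markers in the model and 15 a smaller one. Clk1 in light, for example, went from 0.47 to 0.63 (adjusted p = 0.0662), while Hnrnpc in light went from -0.25 to -0.16 (adjusted p = 0.157). The 3 called in light were all higher and were Clk2, with a log2 fold change of 0.42 (adjusted p = 0.0194), Srsf11, with 0.36 (adjusted p = 0.0289), and Srsf6, which was not called without the markers in the model, with 0.30 (adjusted p = 0.0494). The 6 called in psilocybin-light were Elavl1, Elavl3, Elavl4 and Srsf10 in the lower direction, and Srsf5 and Hnrnpdl in the higher. Neither Hnrnpc nor Hnrnpr was among them. Without dark mice 1 and 6, whose cerebellar markers were high, the counts were 14, 10 and 18. Of all 14281 genes tested in that fit, 39.6%, 33.6% and 43.4% were called, against 31.9%, 24.7% and 38.4% with all mice.

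Without all 4 mice with high cerebellar markers, the members called against dark were 14 in light, 9 in psilocybin-dark and 19 in psilocybin-light. Of all 14135 genes tested in that fit, 43.1%, 38.3% and 48.2% were called, so calls rose over all genes as well. The calls of Clk4 and Hnrnpul1 in light, Clk3 in psilocybin-dark and Srsf1 in psilocybin-light were lost, with adjusted p of 0.0526, 0.177, 0.0579 and 0.171. Gained were the calls of Srsf12, Hnrnpab and Hnrnph1 in all 3 comparisons and those of Hnrnpl, Hnrnpu and Elavl2 given with each gene, and also Hnrnpf in psilocybin-light, with a log2 fold change of 0.19 (adjusted p = 0.038).

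Psilocybin under light was compared with light alone, and no member was called higher and 1 lower, Elavl1, against 0.0553% and 0.553% of all genes. Only Srsf10 had groups that did not overlap, against 1.62% of all genes, at 803 to 898 (median 841) normalized counts in light and 732 to 799.6 (median 764) in psilocybin-light mice. Its log2 fold change was -0.15 ± 0.04 (SE, adjusted p = 0.103). The Clk genes had log2 fold changes of -0.34 to -0.09 here, and none was called.

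Light under psilocybin, that is psilocybin-light against psilocybin-dark, gave 1 member higher and 3 lower, against 2.60% and 3.78% of all genes, and 5 members without overlap against 6.42%. Hnrnpdl was the 1 called higher, with a log2 fold change of 0.22 ± 0.06 (SE, adjusted p = 0.0208) and ranges that met at 2316 and 2332 normalized counts. This call was lost without 1 of psilocybin-dark mice 9 and 10 or psilocybin-light mouse 22 (log2 fold changes between 0.19 and 0.26, highest adjusted p = 0.0553). Elavl1 was called lower with the value given above. Hnrnpul1 was 1639 to 1841 (median 1750) normalized counts in psilocybin-dark and 1518 to 1632 (median 1582) in psilocybin-light mice, a log2 fold change of -0.14 ± 0.04 (SE, adjusted p = 0.0188). Hnrnpu, the scaffold attachment factor that binds chromatin and RNA, was 6747 to 7291 (median 6938) in psilocybin-dark and 6136 to 6711 (median 6295) in psilocybin-light mice, a log2 fold change of -0.14 ± 0.04 (SE, adjusted p = 0.0392). In both genes the 2 groups did not overlap, nor did they for Elavl1, Elavl3 and Elavl4, all lower in psilocybin-light. The Hnrnpul1 call was lost without 1 of psilocybin-dark mouse 9 or psilocybin-light mice 19 and 20 (log2 fold changes between -0.16 and -0.13, highest adjusted p = 0.0761), and that of Hnrnpu without 1 of psilocybin-dark mice 8, 9, 10 and 11 or light mouse 17 or psilocybin-light mice 19, 20, 23 and 24 (log2 fold changes between -0.15 and -0.12, highest adjusted p = 0.111).

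Between psilocybin-dark and light, 2 groups that each received 1 of the treatments, edgeR called no member in either direction, against 0.194% of all genes higher and 0.263% lower. At an unadjusted p under 0.05 there were 6 of the 39 members, against 14.4% of all genes. DESeq2's test called 0 members, against 2.80% of all genes. The widest interval was that of Clk1, whose log2 difference of psilocybin-dark less light had a 95% interval from -0.53 to 0.005.

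The interaction, which is the log2 effect of light under psilocybin less that without it, was called negative for 3 members and positive for 1, against 4.86% and 3.89% of all genes. Elavl1 had the largest called negative value, -0.48 ± 0.12 (SE, adjusted p = 0.0203). Its log2 difference of light less dark was -0.57 under psilocybin and -0.09 without. For Clk2 the interaction was -0.33 ± 0.09 (SE, adjusted p = 0.0293), with a log2 effect of light of 0.31 in PBS mice and -0.02 in psilocybin mice. Clk1, Clk3 and Clk4 had negative interactions of -0.55, -0.30 and -0.36 that did not pass, with adjusted p of 0.0639, 0.0802 and 0.161. For Srsf11 it was -0.28 ± 0.09 (SE, adjusted p = 0.0498), with effects of 0.24 and -0.04. Hnrnpr was the 1 positive member, at 0.23 ± 0.05 (SE, adjusted p = 0.00947). Its log2 difference of light less dark was -0.21 in PBS mice and 0.01 under psilocybin.

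The dark mice enter every interaction, and with the hippocampal markers in the model none of the 4 interactions was called, nor was that of any of the 14464 genes, against 1266 without the markers. The fitted log2 interactions were then -0.43 for Clk2 (adjusted p = 0.209), -0.39 for Srsf11 (adjusted p = 0.219), -0.40 for Elavl1 (adjusted p = 0.405) and 0.19 for Hnrnpr (adjusted p = 0.294). The Clk2 call was lost without 1 of dark mouse 4 or light mouse 17 or psilocybin-light mice 19 and 24 (log2 fold changes between -0.37 and -0.28, highest adjusted p = 0.0541). The Srsf11 call held in 4 of 24 fits with 1 mouse removed and failed without dark mice 1, 2, 3 and 4 or psilocybin-dark mice 8, 9, 10, 11 and 12 or light mice 13, 14, 15, 16, 17 and 18 or psilocybin-light mice 19, 20, 21, 23 and 24 (log2 fold changes between -0.35 and -0.24, highest adjusted p = 0.091). Without the 4 mice with high cerebellar markers its adjusted p was 0.106. Without dark mouse 6 the members with a called interaction rose to 9 and the calls over all genes from 1266 to 2092. Without psilocybin-light mouse 22 the members rose to 7, while all genes gave 1031. Without dark mice 1 and 6 together they rose to 11, of which 7 were negative, and all genes gave 3078. Without the 4 mice with high cerebellar markers 6 members were called, 4 positive and 2 negative, and all genes gave 3810. Positive calls gained there were Srsf12 at 0.36 (adjusted p = 0.00752), Hnrnpab at 0.247 (adjusted p = 0.00276) and Hnrnpc at 0.245 (adjusted p = 0.00584).

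**Figure D5:**
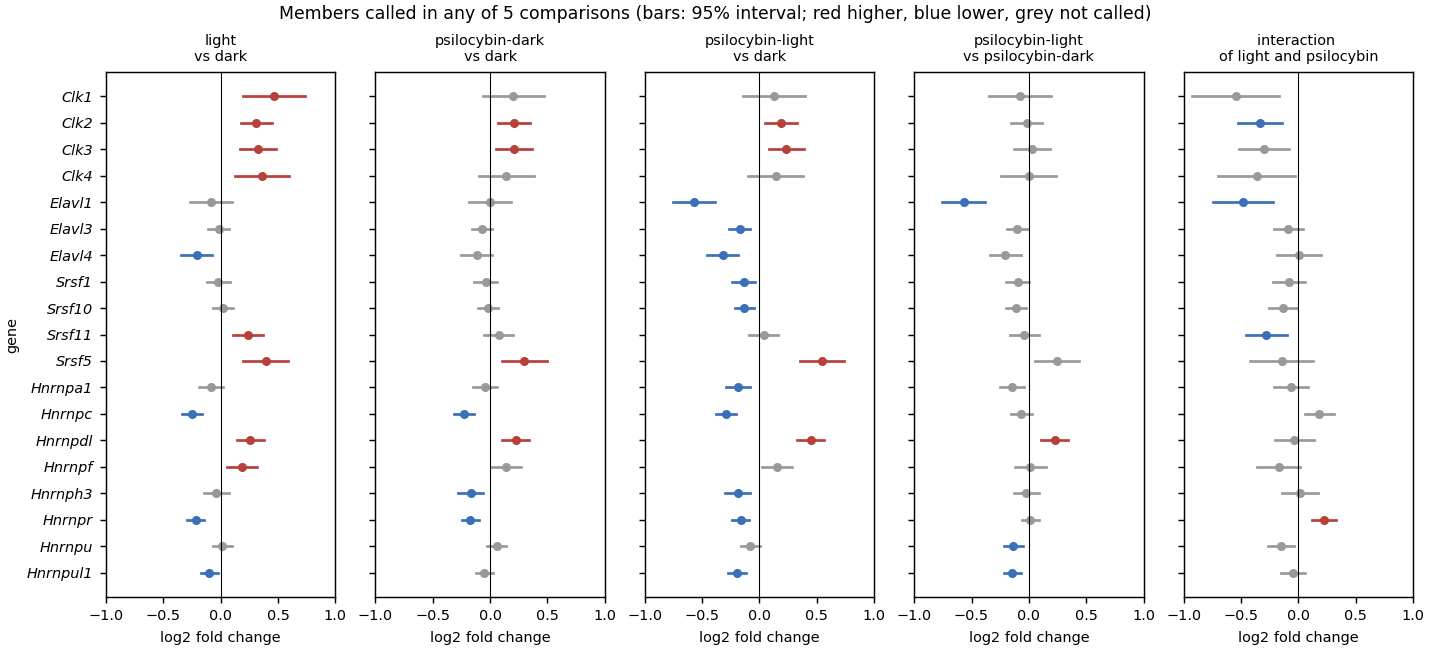
Log2 fold changes of the 19 members called in any of 5 comparisons, with 95% intervals, in light, psilocybin-dark and psilocybin-light against dark, in psilocybin-light against psilocybin-dark, and for the interaction. All 4 Clk genes lie above 0 in light and below 0 in the interaction, and Elavl1 lies near -0.57 in both comparisons of psilocybin-light shown.

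The spread among mice of 1 group was shared by several members. Psilocybin-light mouse 22 was the highest of its group in 21 of the 39 members and psilocybin-dark mouse 12 in 20. In mouse 22 Srsf5 reached 3280 normalized counts, Srsf11 reached 1911 and Hnrnpdl reached 2726, each above the other 5 mice. The same mouse had the highest summed level of 8 nuclear long noncoding RNAs, 59320 normalized counts against at most 43830 in the rest of its group. The sum of this list, which includes Malat1 and Neat1, was higher in light (42740 to 53770) than in dark (24610 to 41760) without overlap, beside the rises of Clk1 to Clk4, Srsf5 and Srsf11. Of its 8 genes, 4 were called higher and 1 lower in light against dark, where 15.4% and 16.5% of all genes were. The median sum was 32210 in dark, 47750 in light, 35230 in psilocybin-dark and 35170 in psilocybin-light. The part of this list in the rises of these members was not tested.

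Other genes of the splicing machinery were read from 5 lists, and the shares called are given beside those of all genes. The latter were 15.4% higher and 16.5% lower in light, 11.9% and 12.8% in psilocybin-dark and 17.4% and 21.0% in psilocybin-light, each against dark. In light against dark, the 29 SR-related proteins and kinases had 12 called higher (41.4%) and 5 lower (17.2%), with a median log2 fold change of 0.13, against -0.01 over all genes. The 4 with the smallest p were Rsrp1 at 0.47 (adjusted p = 0.000147), Arglu1 at 0.37 (adjusted p = 0.00122), Srrm3, a promoter of neuronal microexons, at 0.23 (adjusted p = 0.00168), and Srpk1, the mainly cytoplasmic SR protein kinase, at 0.31 (adjusted p = 0.00173). In psilocybin-dark against dark the same list had 5 higher (17.2%) and 1 lower (3.45%), and in psilocybin-light against dark 5 higher (17.2%) and 8 lower (27.6%). It had 0 higher and 5 lower (17.2%, against 0.553% of all genes) in psilocybin-light against light. Both in psilocybin-light against psilocybin-dark and in the interaction it had 0 higher and 6 lower (20.7%, against 3.78% and 4.86% of all genes), and its interaction median was -0.20 beside 0.00 over all genes. Psilocybin-dark against light gave no call in this list (0 of 29 genes by edgeR).

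The 50 core spliceosome genes had 9 higher (18%) and 3 lower (6%) in light, 4 (8%) and 2 (4%) in psilocybin-dark and 13 (26%) and 7 (14%) in psilocybin-light, each against dark. In light Snrpb, a common Sm protein of the spliceosomal snRNPs, had a log2 fold change of 0.36 (adjusted p = 0.000127), Snrnp70 of the U1 snRNP 0.40 (adjusted p = 0.00139) and Prpf40b 0.27 (adjusted p = 0.000549). Of 24 tested tissue-regulated factors, 3 were higher and 3 lower in light (12.5% each). Among them, Ptbp2, the neuronal polypyrimidine tract binder, had a log2 fold change of -0.28 (adjusted p = 0.000376), Rbfox3 (NeuN) 0.37 (adjusted p = 0.00622), Rbm24 0.79 (adjusted p = 0.000997) and Rbm20 -1.52 (adjusted p = 0.00092). The Rbm20 value has an SE of 0.32, and its groups overlapped at means of 48.5 normalized counts in light and 139 in dark. The same list had 3 higher (12.5%) and 2 lower (8.33%) in psilocybin-dark and 5 higher (20.8%) and 8 lower (33.3%) in psilocybin-light against dark.

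For the 24 hnRNP-related RNA-binding proteins, 4 were higher (16.7%) and 3 lower (12.5%) in light, 2 (8.33%) and 3 (12.5%) in psilocybin-dark and 6 (25%) and 8 (33.3%) in psilocybin-light against dark. Those with the smallest p in light were Pcbp3 with a log2 fold change of -0.24 (adjusted p = 0.00212), Fubp1 with -0.18 (adjusted p = 0.00814), the cold-induced Rbm3 with 0.50 (adjusted p = 0.0181) and the paraspeckle protein Nono with -0.11 (adjusted p = 0.0227). The 15 nonsense-mediated decay genes had 2 higher and 2 lower in light (13.3% each), 3 (20%) and 2 (13.3%) in psilocybin-dark and 3 (20%) and 6 (40%) in psilocybin-light against dark. In light, Smg5 had a log2 fold change of 0.24 (adjusted p = 8.27e-05) and Smg9 of 0.34 (adjusted p = 0.000352), against -0.21 (adjusted p = 0.0449) for Smg8 and -0.52 (adjusted p = 0.0246) for Smg1, the kinase that starts decay by phosphorylating Upf1.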

How the data were processed

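Per the study's methods, poly-A RNA of 24 visual cortex samples was sequenced, reads were trimmed with cutadapt by the authors (those under 30 bases discarded), aligned with STAR to GRCm39 and assigned to Ensembl genes with htseq-count. The submitters' processing notes name mm10 instead. Annotation release and strand setting are not given in the sources used here. The deposited values are raw counts per gene, 55414 genes in 24 libraries of 13552516 to 17906994 counts. Gene names, positions and exon lengths came from GENCODE vM39 on GRCm39, matched by Ensembl identifier, and promoters from RefSeq on GRCm38.p6, where 36 of the 40 members matched.

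In R 4.3.3, 14464 genes that reached 30 counts in some library were kept, libraries were scaled by TMM, and edgeR 4.0.16 fitted a quasi-likelihood model with 1 term per group to all 24 mice. P-values are two-sided, adjusted across the 14464 genes (Benjamini-Hochberg), and an adjusted p under 0.05 is a call. Normalized counts are counts at the mean effective library size of 16058300. Standard errors were derived from the log2 fold change and its F statistic, and 95% intervals use the t quantile at the fit's degrees of freedom. Values were checked on simulated counts with known changes.

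The members and gene lists were chosen with earlier results of these data known. Named were all Clk and Elavl genes, in each comparison with dark up to 8 Srsf or Hnrnp genes called in each direction with the largest change and a mean of at least 10 normalized counts, every member called in the other comparisons, the highest and lowest level per exon length in each family, and up to 4 called genes per list with the smallest p in light against dark. The values of 1 gene that this rule names are not reported here. Other genes named by value (Srsf12, Srsf6, Hnrnpd, Hnrnpl, Hnrnpab and Hnrnph1 among them) were chosen after their values were seen. Alternatives were DESeq2 1.42.0 (its test and its size factors), filterByExpr, no filter, only the groups compared, 1 surrogate variable (sva 3.50.0), a hippocampal marker covariate, mice 1 and 6 left out, the labels' light exposure and each mouse left out. Leaving out the 4 mice with high cerebellar markers, and a cerebellar covariate, were added after seeing the data. Any 2 libraries of a group differed by more than sampling noise (lowest chi-square per degree of freedom 3.09 over 60 pairs). Littermates were assigned to groups at random per the methods, and litters are not given.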

Additional observations from a re-analysis of the deposited data

Results flagged for a closer look

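Of 80 groups of 6 mice screened over 20 named members, 6 held a mouse whose gap to the rest exceeded Dixon's 95% critical value, which chance passes in about 1 group in 20. Psilocybin-light mouse 22 accounted for 3 of them, with Srsf5 at 3280 normalized counts against 2434 to 2692 in the other 5 mice, Srsf11 at 1911 against 1385 to 1575, and Hnrnpdl at 2726 against 2316 to 2464. Light mouse 17 had Srsf5 at 2950 against 2133 to 2400. Dark mouse 6, the mouse with the highest cerebellar marker sum, had Elavl2 at 999 against 1561 to 1801. Dark mouse 1 had Hnrnpu at 5959 against 6651 to 7020.

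By the interaction in edgeR's model, the effect of light differed between PBS and psilocybin mice for 4 of the 39 members (10.3%). Over all genes, 4.86% were called negative and 3.89% positive. None of the 4 was called with the hippocampal markers in the model. The Srsf11 call held in 4 of 24 fits with 1 mouse removed. The log2 interaction was -0.33 for Clk2 (adjusted p = 0.0293), -0.48 for Elavl1 (adjusted p = 0.0203), -0.28 for Srsf11 (adjusted p = 0.0498) and 0.23 for Hnrnpr (adjusted p = 0.00947).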

How the results depend on the processing

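With the hippocampal markers in the model, members called went to 3 in light, 0 in psilocybin-dark and 6 in psilocybin-light, each against dark. The interaction had 0. The 54 results of named members include some that the main fit did not call, and 29 lost their call, 14 of them at a larger fold. Over all genes the same model gave 833, 0, 1079 and 0 calls, against 4611, 3575, 5551 and 1266. Shares in parentheses below are those of all genes called in the same fit. In the main fit they were 24.7% in psilocybin-dark against dark and 0.608% in psilocybin-light against light. They were 6.38% in psilocybin-light against psilocybin-dark, 0.456% in psilocybin-dark against light and 8.75% in the interaction. With DESeq2's test 2 members were called in psilocybin-light against light (1.32%). Without a filter the member counts were 4 in psilocybin-dark against dark (9.36%), 1 in psilocybin-light against psilocybin-dark (1.46%) and 2 in the interaction (2.39%). With only the groups compared they were 3 in psilocybin-dark against dark (13.8%) and 0 in psilocybin-light against light (0.414%). With 1 surrogate variable they were 2 in psilocybin-light against light (2.03%), 7 in psilocybin-light against psilocybin-dark (13.5%) and 9 in the interaction (19.9%). Without dark mice 1 and 6 they were 4 in psilocybin-light against light (1.33%) and 11 in the interaction (21.6%). Without the 4 mice with high cerebellar markers they were 3 in psilocybin-light against light (2.34%) and 8 in psilocybin-light against psilocybin-dark (17.2%). In psilocybin-dark against light that fit called 1 member (Hnrnpl, log2 fold change -0.15), with 6.03% of all genes. With the cerebellar markers in the model they were 7 in psilocybin-light against psilocybin-dark (12.8%) and 8 in the interaction (14.3%). Under the light exposure of the sample labels they were 1 in psilocybin-dark against dark (0.608%) and 0 in psilocybin-light against dark (0.456%). Under the same labels they were 7 in psilocybin-light against light (24.7%) and 14 in psilocybin-dark against light (38.4%). The changes under the labels follow from the exchange of names, and the causes of the others were not tested.

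Leaving out 1 mouse at a time gave 9 to 14 members called in light against dark, 3 to 9 in psilocybin-dark against dark, 12 to 15 in psilocybin-light against dark, 0 to 3 in psilocybin-light against light, 1 to 5 in psilocybin-light against psilocybin-dark, 0 in psilocybin-dark against light and 2 to 9 in the interaction, where all genes gave 1266 calls with all mice, 2092 without dark mouse 6 and 3078 without dark mice 1 and 6. In the fits with 1 mouse removed, the share of all genes called moved as well. Against dark it was 27.2% to 34.8% in light, 19.0% to 29.2% in psilocybin-dark and 33.9% to 40.1% in psilocybin-light. It was 0.0622% to 1.07% in psilocybin-light against light and 4.05% to 8.67% in psilocybin-light against psilocybin-dark. For psilocybin-dark against light it was 0.0208% to 2.40%, and for the interaction 5.77% to 14.5%. The 1296 values of named members from these fits include results that were not called with all mice. Of them, 1186 kept direction and stayed called or not called, 96 lost the call and 14 changed sign. Sign changes were limited to 3 uncalled values near 0: Elavl1 in psilocybin-dark against dark (-0.017 to 0.022), Elavl2 in psilocybin-dark against dark (-0.071 to 0.103) and Elavl3 in light against dark (-0.033 to 0.023). Elavl2 in psilocybin-dark also changed sign with 1 surrogate variable (-0.005), without dark mice 1 and 6 (-0.061) and with the cerebellar markers (-0.084), and with the hippocampal markers it was 0.11 in light and 0.14 in psilocybin-light. Elavl3 in light changed sign without dark mice 1 and 6 (0.041), with the cerebellar markers (0.008) and without the 4 mice (0.046). No paired analysis was possible because litters are not given. Library numbers, which run from 1 to 24, do not pair mice either, as no 2 groups share a number.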
